A study of Homo sapiens with 12 samples.

Results

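The secreted IGF-binding proteins IGFBP1 to IGFBP7 and the receptors IGF1R and IGF2R were followed across 12 RNA libraries. They were picked by gene symbol from the merged gene count table, where they are 9 of 40605 rows, each with a single row. 8 of the 9 passed the filter on low counts. IGFBP5 did not, with 5 counts in all 12 libraries together and at most 1 count in any library. The study used A549, an established line from a human lung adenocarcinoma, with a tetracycline-inducible transgene for the kinase DYRK1B. The transgene was the wild-type kinase (WT) or a Y273F form, with phenylalanine in place of a tyrosine. Cells of either kind were kept for 7 days without doxycycline (control) or with it at 2 µg/ml. The labels give 3 libraries for each of these 4 groups, from cell populations that were grown in parallel.

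The library numbers in the descriptions follow the titles. Libraries 1, 2 and 3 are WT control, libraries 4, 5 and 6 WT doxycycline, libraries 7, 8 and 9 Y273F control, and libraries 10, 11 and 12 Y273F doxycycline. Every group carries a transgene, so doxycycline itself and the induced DYRK1B cannot be told apart. The labels do not say whether either line is 1 clone. The titles' groups are compared first. The libraries are then described in 4 sets that take 1 library from each of 3 groups: 1, 5 and 9; 2, 6 and 10; 3, 7 and 11; 4, 8 and 12. What these sets stand for is not given in the labels, and they were proposed with results of these data known, so they are described without a test.

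IGF1 and IGF2 are growth factors that bind IGF1R, a receptor tyrosine kinase at the cell surface that signals through IRS adaptors, PI3K and AKT. IGF2R, also called the cation-independent mannose 6-phosphate receptor, has no kinase, takes up IGF2 for breakdown and carries lysosomal enzymes. The IGF-binding proteins are secreted, hold IGFs outside the cell and release or deliver them depending on proteases and the matrix. IGFBP7 is an outlier of the family that binds IGFs weakly and is also counted among the IGFBP-related proteins.

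On the RefSeq annotation of GRCh38.p14, with strands from GENCODE, IGFBP1 lies at chr7:45888488-45893660 on the plus strand and IGFBP3 at chr7:45912245-45921272 on the minus strand, with 18.6 kb between them. A second pair of neighbours is IGFBP2 at chr2:216632828-216664436 (plus) and IGFBP5 at chr2:216672105-216695549 (minus), 7.67 kb apart. IGFBP4 lies at chr17:40443450-40457725 (plus) and IGFBP6 at chr12:53097667-53102340 (plus). IGFBP7 lies at chr4:57030773-57110385 (minus), where its end shares 386 bases with POLR2B on the other strand. The receptors are IGF1R at chr15:98648539-98964530 (plus) and IGF2R at chr6:159969082-160111504 (plus). All 9 genes are annotated as protein-coding.

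RefSeq promoter windows of 300 bases, from 250 before to 50 after the start, were matched by symbol for 7 of the 9 genes. IGFBP3 and IGFBP6 are shown because, among those with a window, they spanned the widest ranges over the libraries, and their levels differed between library sets in opposite directions. Both are printed 5′ to 3′ on the strand of the gene, with GGGCGG or its reverse complement in capitals.
IGFBP3 (chr7:45921223-45921522, minus strand): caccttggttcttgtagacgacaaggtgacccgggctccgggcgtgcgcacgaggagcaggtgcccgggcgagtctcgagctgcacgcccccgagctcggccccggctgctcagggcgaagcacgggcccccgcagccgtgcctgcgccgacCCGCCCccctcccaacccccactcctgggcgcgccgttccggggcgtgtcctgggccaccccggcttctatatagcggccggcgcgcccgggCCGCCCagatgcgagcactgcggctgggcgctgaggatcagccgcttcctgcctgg
IGFBP6 (chr12:53097417-53097716, plus strand): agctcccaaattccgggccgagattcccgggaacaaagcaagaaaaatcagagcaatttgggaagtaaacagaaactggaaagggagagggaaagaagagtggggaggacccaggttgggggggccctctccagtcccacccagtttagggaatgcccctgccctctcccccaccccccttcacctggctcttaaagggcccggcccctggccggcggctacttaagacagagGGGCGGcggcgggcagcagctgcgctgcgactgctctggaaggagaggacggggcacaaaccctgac
The IGFBP3 window held 36 CpG dinucleotides and 74.7% G and C, and GGGCGG occurred in it 2 times. The IGFBP6 window held 12 CpG dinucleotides and 61.7% G and C, and GGGCGG occurred in it 1 time. The median over 35116 promoter windows was 14 CpG dinucleotides, and 45.0% of the windows held GGGCGG on either strand. TATAAA, found in 11.5% of all windows, was in neither printed window, and of the 7 windows IGFBP4 was the one that held it. With both strands searched, the motifs CCAAT (34.6% of all windows) and TGANTCA (7.71%) were in none of the 7 windows. GGAATG (14.03%) was in that of IGFBP6 on the strand of the gene and in that of IGFBP5 on the other strand. These matches describe letters in the windows only.

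Total gene counts ran from 2783265 in library 10 to 22028624 in library 9, so that 3 counts stand for 0.136 to 1.08 CPM (a gene's counts per 1000000 gene counts of the library). DYRK1B itself, the labelled transgene's gene, ran from 2.63 to 7.80 CPM in libraries 1, 2, 3, 5, 6, 7, 9, 10 and 11, against 28.6, 12.6 and 20.0 CPM in libraries 4, 8 and 12. Library 8, labelled Y273F control, was above libraries 5, 6, 10 and 11, labelled doxycycline and at 4.07, 7.80, 4.65 and 4.89 CPM, so this gene goes against the titles. The reads mark transcript ends, and the labels do not say which transcript end the transgene carries. All comparisons of groups are between groups as the libraries are labelled. The 9 markers of A549 and airway epithelium summed to 13649 to 24059 CPM in all 12 libraries. Of the other cell types, endothelial markers summed to at most 0.586 CPM, CD3E was at 0 counts, PTPRC was at most 0.225 CPM and the leukocyte sum, nearly all of it CD14, was at most 10.9 CPM.

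None of the 8 tested genes passed the test between the labelled groups, in a table where edgeR's quasi-likelihood test with Benjamini-Hochberg adjustment called 0 of 13047 genes in any of the 4 comparisons (percent called 0). The numbers of genes at an unadjusted edgeR p under 0.05 were 118 for doxycycline in the WT line, 215 in the Y273F line, 160 for the difference of these effects and 445 for Y273F control against WT control. If no gene differed, 652 genes would be expected at that p in each comparison, and all 4 counts were lower. DESeq2 and limma-voom called 0 genes as well. In no comparison of 3 libraries against 3 did the groups of any of the 8 genes separate. Over all tested genes, 3.20% had groups that did not overlap for WT doxycycline against WT control, 10.9% for Y273F doxycycline against Y273F control, and 10.9% for the controls of the lines. Of the 8 genes, 4 had a fitted log2 fold change above 0 for doxycycline in the WT line (median 0.00, beside -0.00 over all tested genes) and 7 in the Y273F line (median 0.20, beside 0.01). For the difference of the effects and for the controls it was 1 of 8 each, with medians of -0.33 and -0.29 beside -0.02 and -0.03. These comparisons share control libraries. The p-values set each difference of groups against the spread between libraries inside the groups. Each labelled group mixes libraries of 3 of the 4 library sets.

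IGFBP7 had the widest spread inside the groups. Its level was 153 ± 204 CPM (SD, n = 3) in WT control, 159 ± 193 in WT doxycycline, 41.2 ± 20.3 in Y273F control and 120 ± 129 in Y273F doxycycline. In 3 of the 4 groups a single library held most of this level: library 2 (388 CPM), library 6 (379 CPM) and library 10 (269 CPM). The fitted log2 fold change for doxycycline was 0.07 ± 1.17 (SE) in the WT line, with a 95% interval from -2.49 to 2.63, and 1.55 ± 1.22 in the Y273F line, from -1.12 to 4.23. Without libraries 2, 6 and 10 these values were 0.46 and 0.24. The control comparison, Y273F minus WT, was -1.91 ± 1.22 with all libraries and 0.15 without those 3, and the difference of the doxycycline effects went from -1.49 to 0.22. All of these missed the threshold.

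IGFBP3, the most abundant carrier of IGFs in blood, was at 152 ± 72.4 CPM in WT control and 108 ± 80.2 CPM in WT doxycycline, a log2 fold change of -0.49 ± 0.59 (interval -1.78 to 0.80). In the Y273F line it was at 169 ± 58.6 CPM in control and 153 ± 104 CPM with doxycycline, a log2 fold change of -0.15 ± 0.59 that was 0.19 without libraries 2, 6 and 10. IGFBP6, which prefers IGF2 over IGF1, was at 64.9 ± 40.3 and 73.7 ± 35.3 CPM in WT control and WT doxycycline. It was at 49.9 ± 14.9 and 77.6 ± 37.0 CPM in Y273F control and Y273F doxycycline. The IGFBP6 log2 fold changes were 0.19 ± 0.49 in the WT line and 0.64 ± 0.50 in the Y273F line, and neither passed. Without libraries 2, 6 and 10 they were 0.50 ± 0.39 and 0.26 ± 0.36, and the Y273F value ran from 0.23 to 0.92 when 1 library was left out at a time.

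IGFBP4, a binding protein that is cut by the protease PAPPA, was at 1090 ± 350.4 CPM in WT control, 1009 ± 254 in WT doxycycline, 901 ± 219 in Y273F control and 929 ± 135 in Y273F doxycycline. Its doxycycline log2 fold changes were -0.11 ± 0.26 in the WT line and 0.04 ± 0.27 in the Y273F line. The control comparison was -0.28 ± 0.27, and -0.50 without libraries 2, 6 and 10, where the single-gene interval ran from -0.92 to -0.09 and the adjusted edgeR p was 0.803. IGFBP1, a binding protein made mainly by liver and decidua, and IGFBP2, a binding protein with an RGD motif, had groups that overlapped as well. IGFBP1 ran from 14.5 ± 3.16 CPM in Y273F control to 19.6 ± 9.02 CPM in WT doxycycline, with doxycycline log2 fold changes of 0.26 ± 0.29 in WT and 0.21 ± 0.30 in Y273F. IGFBP2 ran from 17.2 ± 2.90 CPM in Y273F control to 22.02 ± 6.07 CPM in WT control, with 0.01 ± 0.23 and 0.33 ± 0.24.

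IGF1R had the narrowest interval of the 8 genes in each line. It was at 81.5 ± 9.00 CPM in WT control, 81.4 ± 8.94 in WT doxycycline, 76.3 ± 8.89 in Y273F control and 83.5 ± 11.8 in Y273F doxycycline. Its log2 fold change with doxycycline was -0.00 in the WT line, with an interval from -0.33 to 0.32, and 0.13 in the Y273F line, from -0.19 to 0.46. IGF2R was at 38.1 ± 9.60, 34.2 ± 7.50, 30.6 ± 0.67 and 35.1 ± 10.5 CPM in the same order of groups. The IGF2R log2 fold changes were -0.15 (interval -0.67 to 0.37) and 0.18 (-0.35 to 0.70).

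**Figure D1:**
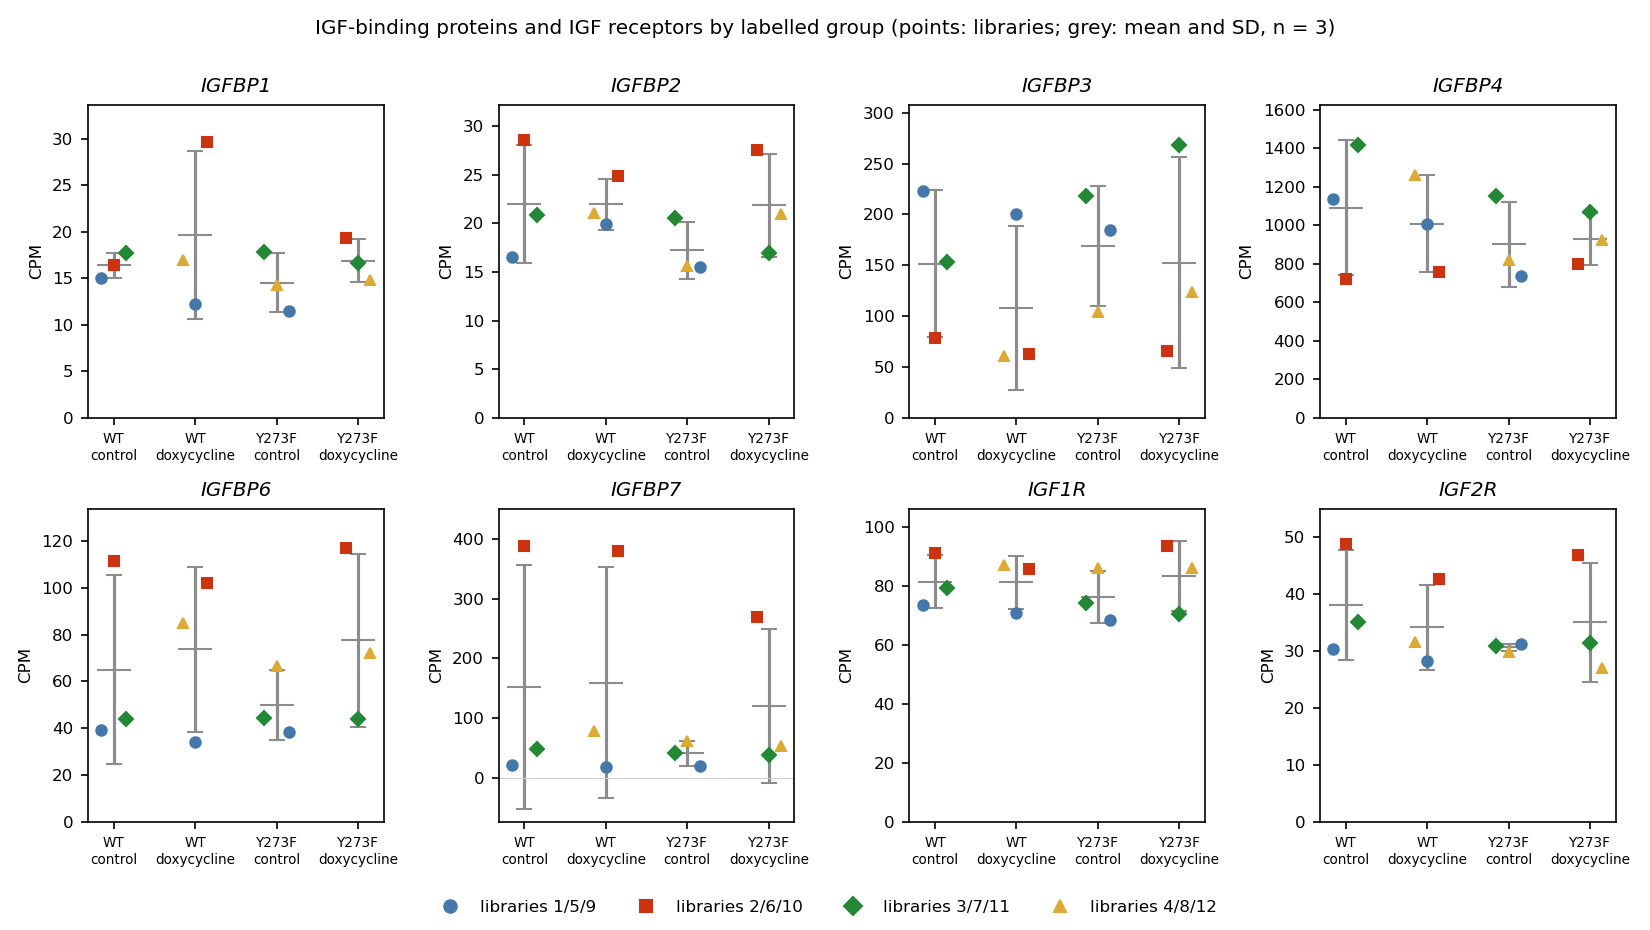
Level in CPM (vertical axes, from 0 except where the SD reaches below it) of the 8 tested genes by labelled group (horizontal axes); points are libraries, coloured and shaped by library set, and grey marks are the mean and SD of 3 libraries. The groups overlap for every gene shown, and the points of libraries 2, 6 and 10 lie at the top of their groups for IGFBP7 (269 to 388 CPM) and IGFBP6 (102 to 117 CPM).

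**Figure D2:**
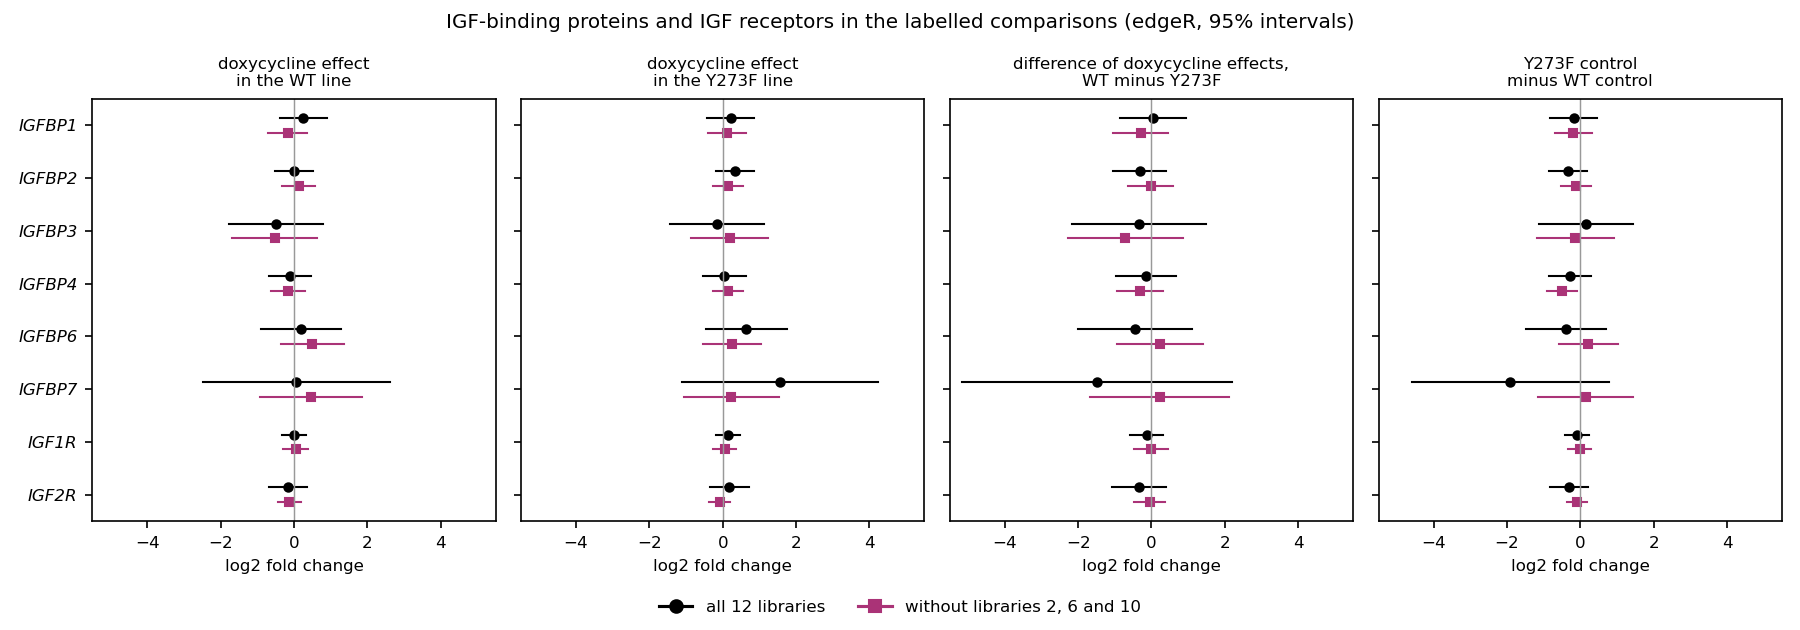
Log2 fold change with its 95% interval (horizontal axes) of the 8 tested genes (vertical axis) in the 4 labelled comparisons from edgeR, with all 12 libraries (black circles) and without libraries 2, 6 and 10 (purple squares). Intervals with all libraries include 0 for every gene, and the widest is that of IGFBP7 (-5.17 to 2.19 for the difference of the doxycycline effects).

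Over the 4 pairs of library sets compared here, the sets did not overlap for 3 to 7 of the 8 genes, beside 17.5% to 55.3% of all tested genes. Between libraries 2, 6 and 10 and libraries 1, 5 and 9, the sets did not overlap for 7 of the 8 genes, with 6 higher and 1 lower in libraries 2, 6 and 10, beside 55.3% of all tested genes (27.7% higher and 27.6% lower). The medians were at least 2-fold apart for 3 of the 8, IGFBP3, IGFBP6 and IGFBP7, beside 15.8% of all genes. The median log2 ratio of the 8 was 0.65, and that of all tested genes was -0.01. Libraries 4, 8 and 12 did not overlap libraries 3, 7 and 11 for 4 of the 8 (3 higher, 1 lower), beside 17.5% of all genes (8.98% higher and 8.50% lower), and 1 of the 8 was at least 2-fold apart beside 1.71%. The median log2 ratio there was -0.02 for the 8 and 0.00 for all tested genes.

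Libraries 3, 7 and 11 did not overlap libraries 1, 5 and 9 for 3 of the 8, all higher, beside 19.7% of all genes (9.67% higher and 9.98% lower), and 1 was at least 2-fold apart beside 1.86%. Libraries 4, 8 and 12 did not overlap libraries 2, 6 and 10 for 5 of the 8 (1 higher, 4 lower), beside 48.1% of all genes (23.1% higher and 25.0% lower), and 1 was at least 2-fold apart beside 12.3%. The median log2 ratios of the 8 in these pairs were 0.19 and -0.39. IGFBP6 and IGFBP7 were the members whose 4 sets were all apart from each other, as were 1.62% of the tested genes. IGFBP3, IGFBP6, IGFBP7 and IGF1R differed in the same direction both from libraries 1, 5 and 9 to libraries 2, 6 and 10 and from libraries 3, 7 and 11 to libraries 4, 8 and 12, as did 9.82% of the tested genes. Bulk RNA cannot tell fewer cells of a kind apart from less RNA per cell.

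IGFBP7 was at 22.4, 18.6 and 20.5 CPM in libraries 1, 5 and 9 and at 388, 379 and 269 CPM in libraries 2, 6 and 10. The values were 48.0, 41.9 and 37.7 CPM in libraries 3, 7 and 11 and 79.4, 61.1 and 53.6 CPM in libraries 4, 8 and 12. No set touched another, and the order from low to high was libraries 1, 5 and 9, then 3, 7 and 11, then 4, 8 and 12, then 2, 6 and 10. The median of libraries 2, 6 and 10 was 18.5 times that of libraries 1, 5 and 9, and their nearest libraries were 12.0-fold apart. Libraries 3, 7 and 11 stood 2.05-fold above libraries 1, 5 and 9, and libraries 4, 8 and 12 stood 1.46-fold above libraries 3, 7 and 11, where the nearest libraries were 1.12-fold apart.

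IGFBP6 kept the same order of sets at a smaller size. It was at 39.2, 34.2 and 38.5 CPM in libraries 1, 5 and 9, and at 44.1, 44.5 and 43.8 CPM in libraries 3, 7 and 11. It was at 84.8, 66.8 and 71.9 CPM in libraries 4, 8 and 12 and at 111, 102 and 117 CPM in libraries 2, 6 and 10. The median ratio was 2.89 between the outer sets and 1.63 between libraries 4, 8 and 12 and libraries 3, 7 and 11. The step from libraries 1, 5 and 9 to libraries 3, 7 and 11 was 1.14-fold, without overlap.

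IGFBP3 went the other way. It was at 223, 201 and 185 CPM in libraries 1, 5 and 9 and at 78.5, 62.8 and 66.2 CPM in libraries 2, 6 and 10, 3.03-fold lower by the medians. It was at 153, 218 and 268 CPM in libraries 3, 7 and 11 and at 60.5, 104 and 124 CPM in libraries 4, 8 and 12, 2.09-fold lower. Libraries 1, 5 and 9 overlapped libraries 3, 7 and 11, and libraries 2, 6 and 10 overlapped libraries 4, 8 and 12, where library 4 held the lowest value of all 12. Within a library, IGFBP7 counts divided by IGFBP3 counts gave 0.0926 to 0.111 in libraries 1, 5 and 9, 0.141 to 0.314 in libraries 3, 7 and 11, 0.432 to 1.31 in libraries 4, 8 and 12 and 4.06 to 6.04 in libraries 2, 6 and 10. This ratio needs no scaling between libraries. Its 4 sets did not overlap, and those of IGFBP7 alone were already apart, so the ratio is no separate result. IGFBP6 counts divided by IGFBP3 counts gave 0.171 to 0.209 in libraries 1, 5 and 9. They gave 0.163 to 0.289 in libraries 3, 7 and 11, so these 2 sets overlapped.

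IGFBP1, the neighbour of IGFBP3 on chromosome 7, was at 15.001, 12.2 and 11.5 CPM in libraries 1, 5 and 9 and at 16.4, 29.7 and 19.3 CPM in libraries 2, 6 and 10, 1.58-fold higher without overlap. It was at 17.7, 17.8 and 16.6 CPM in libraries 3, 7 and 11 and at 16.98, 14.3 and 14.8 CPM in libraries 4, 8 and 12. The neighbours thus differed in opposite directions between libraries 2, 6 and 10 and libraries 1, 5 and 9. The overlap of IGFBP1 between libraries 4, 8 and 12 and either libraries 3, 7 and 11 or libraries 2, 6 and 10 changed when TMM scaling was left out, as did that of IGF2R between libraries 4, 8 and 12 and libraries 3, 7 and 11.

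IGFBP2 was at 28.6, 24.9 and 27.6 CPM in libraries 2, 6 and 10 and at 16.6, 19.9 and 15.5 CPM in libraries 1, 5 and 9, 1.66-fold higher. It was at 20.9, 20.6 and 17.01 CPM in libraries 3, 7 and 11 and at 21.0, 15.6 and 21.0 CPM in libraries 4, 8 and 12, ranges that overlap each other. Each of libraries 2, 6 and 10 was above the other 9 libraries for IGFBP2. IGFBP4 was at 1136, 1009 and 735 CPM in libraries 1, 5 and 9, at 719, 755 and 797 CPM in libraries 2, 6 and 10, at 1415, 1150 and 1067 CPM in libraries 3, 7 and 11 and at 1262, 817 and 922 CPM in libraries 4, 8 and 12. It overlapped in 3 of the 4 pairs, and libraries 4, 8 and 12 stood 1.22-fold above libraries 2, 6 and 10 with nearest libraries 1.02-fold apart.

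IGF1R was at 73.8, 71.1 and 68.6 CPM in libraries 1, 5 and 9 and at 91.4, 85.8 and 93.8 CPM in libraries 2, 6 and 10, 1.29-fold higher. Its values were 79.3, 74.2 and 70.6 CPM in libraries 3, 7 and 11 and 87.2, 86.0 and 86.1 CPM in libraries 4, 8 and 12, 1.16-fold higher. Between the lowest and the highest library IGF1R spanned 1.37-fold, the narrowest range of the 8 genes. IGF2R was at 30.3, 28.3 and 31.2 CPM in libraries 1, 5 and 9 and at 48.8, 42.6 and 46.9 CPM in libraries 2, 6 and 10, 1.55-fold higher. It was at 35.1, 30.9 and 31.5 CPM in libraries 3, 7 and 11 and at 31.6, 29.9 and 27.0 CPM in libraries 4, 8 and 12, so that libraries 2, 6 and 10 were above the other 9 libraries.

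**Figure D3:**
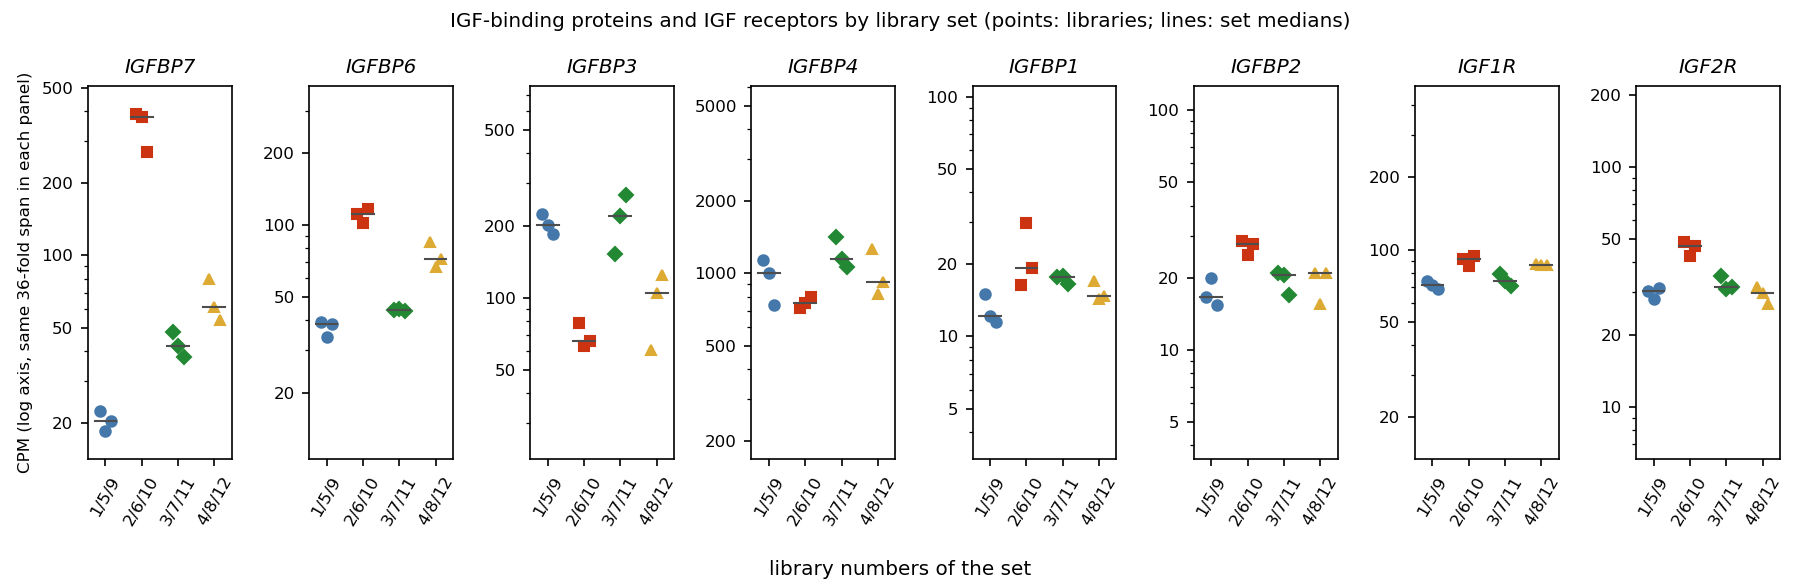
Level in CPM (vertical log axes with the same 36-fold span) of the 8 tested genes by library set (horizontal axes, library numbers); points are libraries and lines are set medians. IGFBP7 spans from 18.6 to 388 CPM and IGFBP6 from 34.2 to 117 CPM with libraries 2, 6 and 10 highest, while IGFBP3 is at 62.8 to 78.5 CPM in those libraries.

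Libraries 2, 6 and 10 also stood apart in the sum of fibroblast markers, but not in the leukocyte or endothelial sums. The leukocyte sum was 5.63 to 10.9 CPM in them and 4.98 to 8.97 CPM in the other 9 libraries. The endothelial sum was at most 0.279 CPM in them and 0.586 CPM in the others. The 8 fibroblast markers summed to 161 to 222 CPM in libraries 2, 6 and 10 and to 18.0 to 39.3 CPM in the other 9 libraries, and 5 of the 8 were at most 2 CPM in every library. The defining markers COL1A2 and DCN reached at most 0.358 and 0.0447 CPM in any library. Most of the sum was COL1A1, at 136 to 197 CPM in libraries 2, 6 and 10 and 13.3 to 30.8 CPM elsewhere. The other tested fibroblast markers, LUM and THY1, had medians 10.4-fold and 7.74-fold higher in libraries 2, 6 and 10 than in libraries 1, 5 and 9. THY1 was at 7.16 to 13.2 CPM in libraries 2, 6 and 10 and nearly reached that in libraries 4, 8 and 12, at 6.31 to 7.11 CPM. Against libraries 1, 5 and 9, all 3 tested fibroblast markers were higher in libraries 2, 6 and 10, without overlap and at least 2-fold apart. Of all tested genes, 27.7% were higher and 15.8% at least 2-fold apart in either direction. The sum for A549 and airway epithelium was 19786 to 24059 CPM in these libraries and 13649 to 18153 CPM in the others. This list did not move one way: against libraries 1, 5 and 9, 5 of its 9 tested genes were higher and 4 lower. The keratins KRT7, KRT8, KRT18 and KRT19 and ALDH1A1 were the higher ones. The medians of EPCAM, ALDH3A1, AKR1C1 and AKR1B10 were 5.68-fold, 4.77-fold, 2.35-fold and 1.69-fold lower. ALDH3A1 and AKR1C1 were also below the other 9 libraries. EPCAM, at 4.65 to 6.75 CPM, overlapped libraries 4, 8 and 12, at 4.79 to 8.37 CPM. AKR1B10, at 2236 to 2635 CPM, overlapped libraries 3, 7 and 11, at 2375 to 2848 CPM. The total counts of libraries 2, 6 and 10 were 4469706, 7167086 and 2783265, inside the range of the other libraries except for library 10. The part of these markers in the levels above was not tested.

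The genes whose levels over the 12 libraries were most like those of a member were found by the mean absolute difference in log2 CPM after centring, among 10424 other genes with a mean of at least 5 CPM. For IGFBP7 these were IL11, a cytokine of the IL-6 family (difference 0.28), HSPB8, a small heat shock protein (0.29), and L1CAM, a cell adhesion molecule (0.31), against a median of 1.25 over the candidates. IL11 had set medians of 3.65 CPM in libraries 1, 5 and 9, 4.89 in libraries 3, 7 and 11, 11.0 in libraries 4, 8 and 12 and 59.0 in libraries 2, 6 and 10, the same order as IGFBP7. For IGFBP6 they were the actin cross-linker FLNA (0.11), the lysyl oxidase LOXL2 (0.11) and the RNA-binding protein RBMS3 (0.11), against a median of 0.60. FLNA had set medians of 137, 144, 219 and 401 CPM in that order of sets. IL11 and FLNA were picked for this likeness over the same 12 libraries, so their order of sets is no separate result.

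For IGFBP1, which varied less, the most similar genes were TMEM150C (0.13), CYB561D1 (0.13) and the lysosomal protease CTSB (0.14), against a median of 0.32. These values describe likeness over the same 12 libraries, where the compared genes share the depth and scaling of each library.

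The ligands of the pathway had few or no counts. IGF2 and INS, the gene of insulin, were at 0 counts in all 12 libraries, which allows up to 0.136 to 1.08 CPM per library (3 counts, counting error only). IGF1 had 16 counts in all, at most 6 in a library, and INSRR, an orphan relative of the insulin receptor, had 1. INSR, the insulin receptor, which can pair with IGF1R, was at 27.7, 23.1 and 27.4 CPM in libraries 1, 5 and 9 and at 13.7, 11.8 and 7.52 CPM in libraries 2, 6 and 10, 2.31-fold lower. It was at 22.1, 21.1 and 25.4 CPM in libraries 3, 7 and 11 and at 22.8, 17.9 and 21.5 CPM in libraries 4, 8 and 12. INSR was thus lowest in the libraries where IGF2R was highest.

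No gene of the pathway lists passed in any labelled comparison. The tested genes were 5 of 7 regulators of IGFs and their binding proteins, 5 of 9 IGFBP-related proteins, 7 of 8 adaptors, 15 of 16 PI3K and AKT genes, 7 of 7 genes of mannose 6-phosphate sorting, 3 of 3 IGF2 mRNA-binding proteins and 1 of 2 insulin receptors. Median log2 fold changes for doxycycline ran from -0.15 (the insulin receptor) to 0.09 (IGF2 mRNA-binding proteins) in the WT line, beside -0.00 over all tested genes. In the Y273F line they ran from -0.27 (the insulin receptor) to 0.39 (the regulators), beside 0.01 over all tested genes. All 5 regulators had a fitted value above 0 in the Y273F line, and none passed.

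By library set, all 5 tested regulators were higher in libraries 2, 6 and 10 than in libraries 1, 5 and 9 without overlap, as were 27.7% of all tested genes. The widest was STC1, a stanniocalcin that inhibits the PAPPA protease, at 54.0, 40.9 and 54.0 CPM in libraries 2, 6 and 10 and 3.18, 6.89 and 6.57 CPM in libraries 1, 5 and 9. It was at 20.1, 11.2 and 9.58 CPM in libraries 3, 7 and 11 and at 8.85, 8.97 and 8.59 CPM in libraries 4, 8 and 12, so the latter pair differed in the opposite direction. STC2, PAPPA, KAZALD1, CCN2, IRS1, GRB10 and GRB14 were singled out after their values were seen. STC2, a related inhibitor of PAPPA, was at 59.2, 55.8 and 57.3 CPM in libraries 2, 6 and 10 against 19.0, 19.3 and 16.3 CPM in libraries 1, 5 and 9. It was also 3.10-fold higher in libraries 4, 8 and 12 (83.6, 49.2 and 43.4 CPM) than in libraries 3, 7 and 11 (32.7, 14.05 and 15.8 CPM). PAPPA, which cuts IGFBP4, was at 177 to 186 CPM in libraries 1, 5 and 9 and at 260 to 341 CPM in the other 9 libraries.

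Of the 5 tested IGFBP-related proteins, 3 were higher and 2 lower in libraries 2, 6 and 10 than in libraries 1, 5 and 9, 4 of them at least 2-fold apart. Over all tested genes, 27.7% were higher, 27.6% lower and 15.8% at least 2-fold apart. CCN5, a matricellular protein, spanned the widest range, at 48.2, 35.9 and 49.4 CPM in libraries 2, 6 and 10 and 4.51 to 11.1 CPM in the other 9. CCN2, the connective tissue growth factor, was at 65.5 to 88.2 CPM in libraries 2, 6 and 10 and at 8.58 to 22.5 CPM elsewhere. KAZALD1, a secreted protein with an IGFBP domain, was at 5.63, 7.24 and 9.66 CPM in libraries 2, 6 and 10. That was 5.56-fold lower by the medians than in libraries 1, 5 and 9, where it was at 40.2, 48.3 and 40.0 CPM. It was at 29.8 to 34.4 CPM in libraries 3, 7 and 11. In libraries 4, 8 and 12 it was at 23.2 to 27.1 CPM, so its 4 sets were all apart. IRS2, the adaptor with the widest range, was at 150, 160 and 174 CPM in libraries 2, 6 and 10 and at 573, 576 and 589 CPM in libraries 1, 5 and 9. It was at 445, 437 and 501 CPM in libraries 3, 7 and 11. In libraries 4, 8 and 12 it was at 349, 323 and 348 CPM. The 4 sets of IRS2 were thus all apart as well, as were those of 1.62% of all tested genes. Both KAZALD1 and IRS2 had the reverse order of IGFBP7 and IGFBP6. IRS1, the other main adaptor, overlapped between libraries 2, 6 and 10 (33.8 to 37.7 CPM) and libraries 1, 5 and 9 (29.7 to 35.9 CPM).

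GRB10, an adaptor that restrains IGF1R and insulin receptor signalling, was at 102 to 104 CPM in libraries 2, 6 and 10 and at 42.4 to 68.1 CPM elsewhere. Its relative GRB14 went the other way, at 10.6 to 13.5 CPM against 22.4 to 36.5 CPM. Among the 15 tested PI3K and AKT genes, 6 were higher, 3 lower and 6 overlapping between libraries 2, 6 and 10 and libraries 1, 5 and 9, with 1 at least 2-fold apart. The 9 of 15 that did not overlap are near the background of 55.3% of all tested genes, and 15.8% of all tested genes were at least 2-fold apart. The gene at least 2-fold apart was PIK3R3, a regulatory subunit of PI3K, at 2.86 to 3.06 CPM in libraries 2, 6 and 10 and 4.02 to 9.50 CPM elsewhere. Of the 7 genes of mannose 6-phosphate sorting, the route that IGF2R serves, 2 were higher, 1 was lower and 4 overlapped, none 2-fold apart, beside the same 55.3% not overlapping and 15.8% at least 2-fold apart. The lower gene was GGA1, a sorting adaptor at the trans-Golgi, at 13.9 to 18.3 CPM in libraries 2, 6 and 10 and 19.8 to 23.9 CPM in libraries 1, 5 and 9. The mRNA-binding protein IGF2BP3 was at 52.3 to 57.2 CPM in libraries 2, 6 and 10 and at 26.1 to 46.2 CPM in the other 9 libraries.

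**Figure D4:**
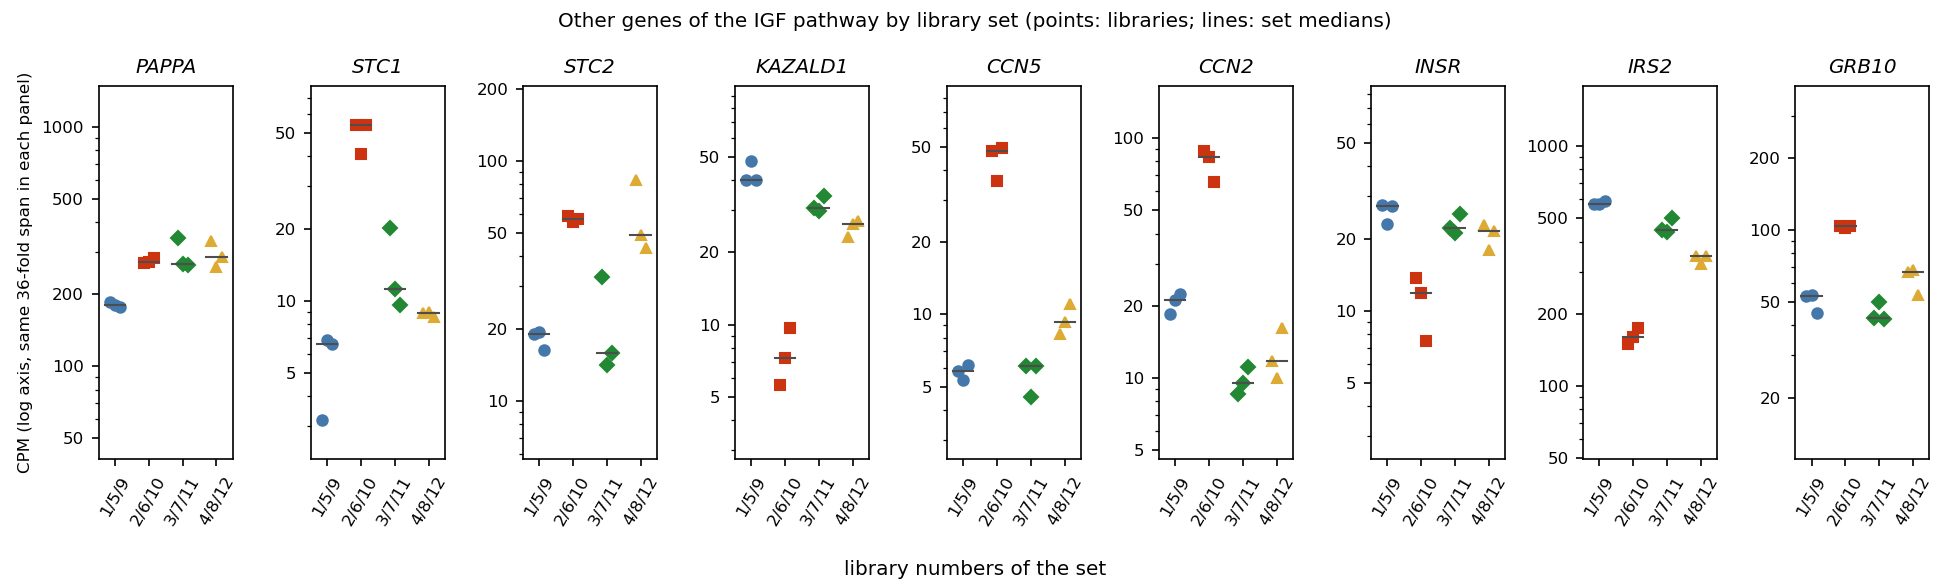
Level in CPM (vertical log axes with the same 36-fold span) of 9 other genes of the IGF pathway by library set (horizontal axes, library numbers); points are libraries and lines are set medians. STC1 (40.9 to 54.0 CPM), CCN5 (35.9 to 49.4 CPM) and CCN2 are highest in libraries 2, 6 and 10, and KAZALD1, INSR (7.52 to 13.7 CPM) and IRS2 are lowest there.

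Reads on the strand opposite to a transcript were few for most of these genes and many for IGF2R and IGFBP7. IGF2R had 3163 counts on its own strand and 131918 on the opposite strand, 97.7% of both. The opposite-strand counts were 219, 134 and 19273 in libraries 1, 2 and 3, 171, 2767 and 74418 in libraries 4, 5 and 6, 391, 24509 and 365 in libraries 7, 8 and 9, and 9398, 113 and 160 in libraries 10, 11 and 12. The high libraries 3, 5, 6, 8 and 10 fell in all 4 labelled groups and in all 4 library sets. On its own strand IGF2R stayed between 90 and 697 counts in a library. RefSeq places the antisense gene AIRN, a long non-coding RNA, inside IGF2R on the opposite strand, at chr6:160003291-160007664. LOC124901451 and CHP1P2 overlap IGF2R as well. The part of AIRN or of these 2 genes in the opposite-strand counts was not tested. When strand was ignored, the fitted IGF2R log2 fold changes were 2.20 ± 2.38 and -1.24 ± 2.31 for doxycycline in WT and Y273F, and neither passed.

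IGFBP7 had 8204 counts on its own strand and 8798 on the opposite strand. Its end shares 386 bases there with the end of POLR2B, a subunit of RNA polymerase II. IGFBP7-AS1, a long non-coding RNA, overlaps its other end on the opposite strand, at chr4:57109762-57205299. UBE2CP3 and LOC124900898 overlap IGFBP7 as well, and the part of any of these genes in the counts was not tested. Counting without strand left 1822 IGFBP7 counts, 22.2% of the strand-specific ones. The opposite-strand counts lay between 68.9 and 104 CPM in every library, whereas the counts on the gene's own strand followed the library sets. For IGFBP2, IGFBP3, IGFBP4 and IGFBP6 the opposite strand held at most 2 counts over all libraries. IGF1R had 127 opposite-strand counts, 1.67% of both strands.

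**Figure D5:**
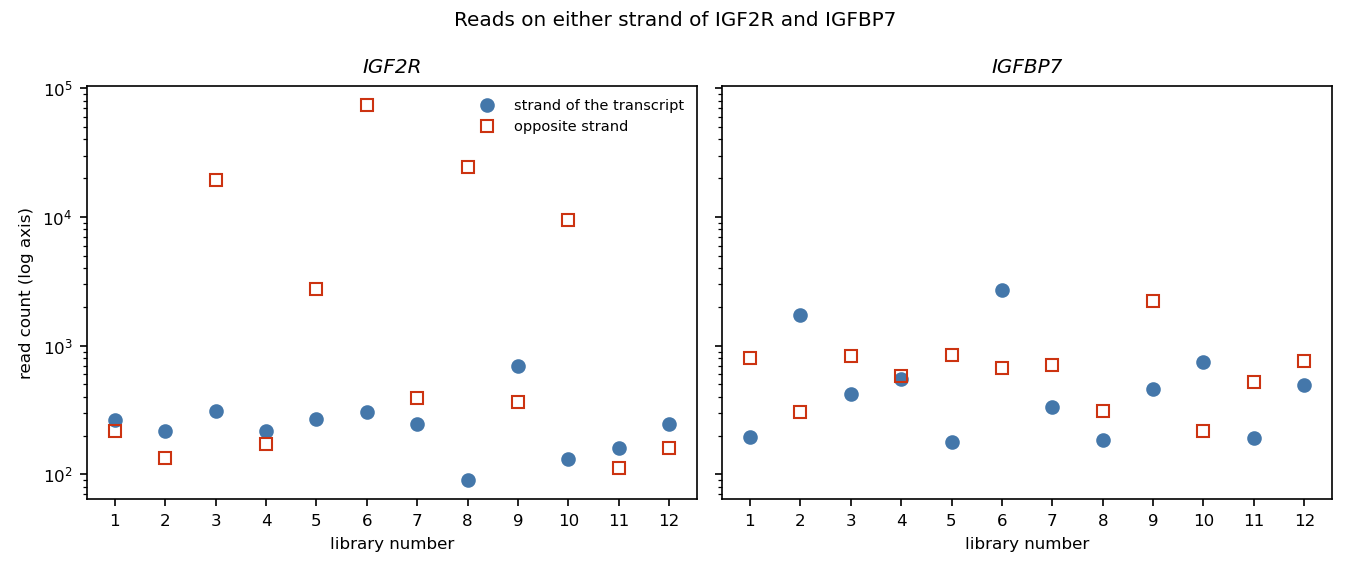
Read counts (vertical log axis) on the strand of the transcript (filled circles) and on the opposite strand (open squares) of IGF2R and IGFBP7 by library number (horizontal axes). The opposite-strand counts of IGF2R run from 113 to 74418 while its own-strand counts run from 90 to 697.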

How the data were processed

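The data are 12 RNA libraries from A549 cells with inducible WT or Y273F DYRK1B. Per the labels' protocols, QuantSeq FWD V2 libraries were made, a 3′ tag method that keeps strand. Reads were aligned with STAR to GRCh38 (p14), per the submitters' processing notes; no version of STAR, annotation release or handling of duplicate reads is stated there. What the authors deposited are whole-number counts, as a merged table of 40605 rows and as per-library tables with and without strand. All 40605 merged rows equal a transcript-strand row of the per-library tables. The merged counts were used, and 1212 rows repeat a symbol, none of them a gene named here as a member of the family. Reads assigned to no gene were 35.5% to 43.2% of a library's reads and stayed out of totals and tests, and 7.25% to 8.07% of both strands' counts lay on the opposite strand.

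Groups came from the titles. The filter was filterByExpr at a minimum count of 10, which left 13047 genes. These were scaled by TMM and tested by edgeR's quasi-likelihood functions (edgeR 4.0.16 in R 4.3.3) with a mean for each of 4 groups, and called at a Benjamini-Hochberg adjusted p under 0.05 over all tested genes. Standard errors are the log2 fold change divided by the root of the F statistic. CPM are TMM-scaled. The script was tested on simulated data. Alternatives were DESeq2 1.42.0, limma 3.58.1 (voom), other scalings and filters, a replicate block, both other count tables, leaving out each library in turn and leaving out libraries 2, 6 and 10. Floors of 3 counts cover counting error only, since duplicate reads are not independent molecules.

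The genes, lists, library sets and tests were chosen with earlier results of these data known. By the naming rule, all 9 IGF-binding proteins and receptors were named, then ligands and insulin receptors, any pathway gene past the threshold and the gene of widest log2 CPM range in each list; the 3 genes of nearest centred log2 CPM were named for each member whose log2 CPM spanned at least 1. Those of IGFBP3 are not reported here. Coordinates and promoter windows are from RefSeq on GRCh38.p14, and strands of the genes from GENCODE. Protein sequences were not used here.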

Additional observations from a re-analysis of the deposited data

Results flagged for a closer look

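Opposite-strand counts entered the comparisons of the labelled groups only in the alternative that ignores strand. IGF2R reached 10383 opposite-strand CPM in the highest library labelled doxycycline (library 6), above the 8178 of the highest control library (library 8), and the lowest libraries of either kind were at 17.5 and 16.6. IGF1R reached 3.21 opposite-strand CPM in the highest library labelled doxycycline, above the 2.24 of the highest control library. Both are listed because the highest value among the libraries with doxycycline exceeded every control library, and neither difference was tested.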

How the results depend on the processing

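Under 10 alternatives, 302 of 320 log2 fold changes of the 8 genes kept their sign and their side of the threshold, 18 changed sign and 0 passed. The smallest adjusted p of any of these genes over all settings, single-library omissions included, was 0.797. Upper-quartile scaling gave -0.0016 for IGFBP2 in the WT line, and limma-voom gave 0.0038 for IGF1R in the WT line and -0.12 for IGFBP1 in the difference of the effects. With counts that ignore strand, IGF2R was at 2.20 in WT, -1.24 in Y273F, 3.44 for the difference and 1.82 for the controls, where opposite-strand counts enter. Without libraries 2, 6 and 10 the doxycycline values in WT were -0.17 for IGFBP1 and 0.045 for IGF1R, those in Y273F 0.19 for IGFBP3 and -0.082 for IGF2R, those of the difference -0.29 for IGFBP1, 0.24 for IGFBP6 and 0.22 for IGFBP7, and those of the controls -0.14 for IGFBP3, 0.22 for IGFBP6 and 0.15 for IGFBP7. The cause of these changes was not tested.

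The deviations of libraries with the same replicate number in different groups correlated between -0.69 and 0.57 (median -0.15), and 3 of 18 pairs were over 0.1. Those of libraries with different replicate numbers in different groups correlated between -0.65 and 0.81 (median 0.15), and 20 of 36 pairs were over 0.1. Each library set joins different replicate numbers, so these values cannot decide whether the replicate numbers pair the samples. With the replicate block, 0 genes passed in each comparison, IGFBP2 in the WT line was at -0.0021, and the other 31 values of the 8 genes kept their sign.

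Leaving out each library in turn, 35 of 384 values changed sign and 0 passed. The WT doxycycline count of called genes stayed at 0, and the counts for the Y273F line, the difference and the controls ran from 0 to 1. The single calls, chosen after their values were seen, were SLX1B without library 8, RPL32P18 without library 11 and FKBP1C without library 12. For the genes with any value that changed sign, the ranges over all omissions follow. In the WT line they were -0.17 to 0.51 for IGFBP1, -0.16 to 0.23 for IGFBP2 and -0.34 to 0.12 for IGFBP4. They were -0.11 to 0.82 for IGFBP6, -1.63 to 2.17 for IGFBP7, -0.068 to 0.088 for IGF1R and -0.34 to 0.062 for IGF2R. In the Y273F line the ranges were -0.83 to 0.20 for IGFBP3, -0.083 to 0.26 for IGFBP4 and -0.076 to 0.34 for IGF2R. For the difference the ranges were -0.37 to 0.30 for IGFBP1, -1.15 to 0.34 for IGFBP3 and -0.38 to 0.081 for IGFBP4. They were -0.74 to 0.18 for IGFBP6 and -3.17 to 0.62 for IGFBP7. For the controls the ranges were -0.15 to 0.55 for IGFBP3, -0.64 to 0.24 for IGFBP6 and -2.43 to 0.19 for IGFBP7.

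Depth limits the low genes: 3 counts stand for up to 1.08 CPM, in library 10, so IGFBP5 and the ligands cannot be compared. The 3 libraries of a group and the unexplained library sets limit the labelled comparisons. CPM from transcript ends are not levels per length and do not rank one gene against another.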
